A study of Sus scrofa with 6 samples.

Results

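Rab GTPases, the proteins that bind or regulate them and the FYVE zinc finger proteins of endosomes were followed in pig oocytes from large and small antral follicles. The members are the rows of the deposited count table whose gene name begins with RAB and a number, RABEP, RABGAP, RABGEF, RABL or ZFYVE and which had at least 10 reads in at least 3 of the 6 libraries. Of 74 rows with such a name, 67 met the count rule, among 19271 rows in all. They were 47 Rab GTPases, 1 Rab-like GTPase (RABL3), 7 Rab-named effectors, 5 Rab-named regulators and 7 FYVE proteins. RNA came from oocytes of prepubertal gilts, freed of their cumulus cells, from large follicles (3 to 6 mm across; 3 libraries) and small follicles (1.5 to 1.9 mm; 3 libraries). Large and small follicles were aspirated with needles and syringes of different size, so follicle size and aspiration cannot be told apart. The ovaries were abattoir material, each library is a pool of oocytes, and nothing in the labels says whether replicates were separate collections, so the p-values cover the spread among these pools alone, and it may be technical. The question behind the comparison is which transcripts differ where oocytes differ in developmental competence.

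A Rab GTPase is a small switch: loaded with GTP by an exchange factor it sits on one kind of membrane and recruits effectors, and an activating protein (GAP) then makes it hydrolyse the GTP and let go. RAB5 proteins mark early endosomes, RAB4 and RAB11 proteins the recycling routes, RAB7A the way to the lysosome, and RAB1, RAB2 and RAB6 proteins the traffic between endoplasmic reticulum (ER) and Golgi. FYVE fingers bind phosphatidylinositol 3-phosphate, the lipid that RAB5 membranes carry. In mouse oocytes RAB11A vesicles take part in actin-driven movement and RAB27A in cortical granules. The roles given here are known from human and mouse proteins.

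Library totals ranged from 8015357 reads (large-follicle library 3) to 56887282 reads (large-follicle library 2). Levels are given as CPM (counts per 1000000 reads, scaled to effective library size) for 1 gene across libraries, and as the deposited TPM, which corrects for gene length, between genes. All 10 oocyte markers were measured, and their summed level was 12486 to 14739 CPM in large-follicle libraries, against 17165 to 18280 CPM in small-follicle libraries, with no overlap. The mean was lower in large-follicle oocytes for 10 of 10, at an unadjusted p under 0.05 for 8 (5 fell in DESeq2's own test, 0 in edgeR). Over all genes tested in edgeR 49.2% had a lower mean, and 8.17% were lower at an unadjusted p under 0.05. In DESeq2's own test 2.78% of all genes fell. What part the lower oocyte markers have in the Rab and FYVE results was not tested. Of 16 granulosa and cumulus markers 14 were in the table, with summed levels of 131 to 189 CPM in large-follicle libraries, against 124 to 204 CPM in small-follicle libraries, so these overlapped. Of the 9 tested, 8 had lower means in large-follicle oocytes (median log2 difference -0.26) and 0 passed. Most of the sum was KITLG, at 88.3 to 110 CPM in large-follicle libraries, against 96.3 to 106 CPM in small-follicle libraries, and INHBA, at 17.4 to 64.9 CPM in large-follicle libraries, against 9.04 to 54.7 CPM in small-follicle libraries. Among the other markers, FSHR stayed at or below 1.54 CPM and AMH and LHCGR at or below 0.30 CPM in every library. Further markers of the list, not named here, made up the rest of the sum, which reached 204 CPM in small-follicle library 1. The part of these markers in the results was not tested. Theca and stroma markers (10 of 10 in the table) summed to 13.7 to 15.9 CPM in large-follicle libraries, against 15.8 to 17.3 CPM in small-follicle libraries, and blood, immune and endothelial markers (11 of 12) to 17.9 to 22.04 CPM in large-follicle libraries, against 23.8 to 25.3 CPM in small-follicle libraries. The last list did not overlap between the groups, and 0 of its 5 tested genes passed in edgeR and 1 in DESeq2's own test. Over all genes 0.0639% passed in edgeR and 5.66% in DESeq2's own test. In bulk RNA, fewer cells of a type and less RNA per cell cannot be told apart.

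The FYVE protein ZFYVE1, an ER protein at the sites where autophagosomes form, was the most abundant member, with a mean of 452 TPM over the 6 libraries. RABGAP1, a GAP for Rab proteins, followed at 293 TPM, then RAB5C at 229 TPM and RAB2A at 229 TPM. RAB3GAP1, a subunit of the complex that loads RAB18 with GTP, had 199 TPM and RAB10, of exocytic and recycling routes, 199 TPM. At the other end stood RAB34 (0.203 TPM), RAB39B (0.352 TPM), RAB19 (0.374 TPM) and RAB44 (0.535 TPM). The 48 GTPases had a median level of 29.4 TPM and the 19 effectors, regulators and FYVE proteins one of 25.2 TPM, beside 18.4 TPM over the 14091 genes tested. GTPases made up the larger sum, 2465 TPM against 1422 TPM for the other members. Paralogs differed widely in level: RAB5C had 229 TPM and RAB5A 5.56 TPM (RAB5B was not analysed here), and RAB27A had 125 TPM and RAB27B 1.19 TPM.

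**Figure D1:**
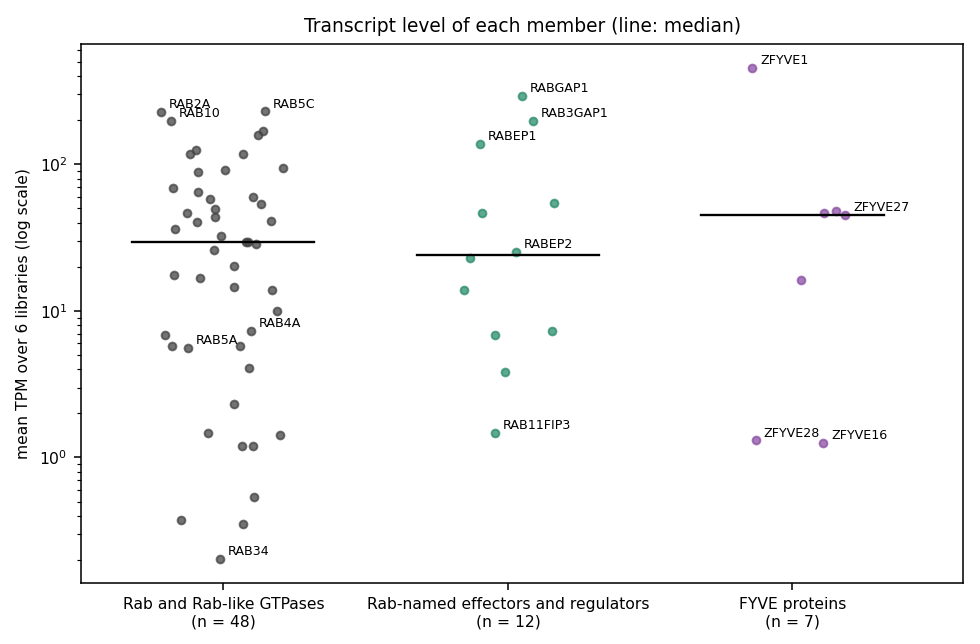
Mean deposited TPM of each of the 67 members over the 6 libraries, on a log axis, by class, with a line at the class median. ZFYVE1 lies highest at 452 TPM and RAB34 lowest at 0.203 TPM.

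In large-follicle oocytes 2 members fell and 0 rose among the 67, all of which were tested (edgeR's quasi-likelihood test, Benjamini-Hochberg adjusted over 14091 genes). Over all genes tested 0.0639% passed, 0.0142% as higher and 0.0497% as lower in large-follicle oocytes. Both that fell were effectors or FYVE proteins, RABEP2 and ZFYVE27, and no GTPase passed. At an unadjusted p under 0.05 there were 14 members, 7 higher and 7 lower in large-follicle oocytes, which is 20.9% of the members beside 18.0% of all genes tested.

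RABEP2 encodes a rabaptin, a coiled-coil effector of RAB5 on early endosomes. Its level was 37.4, 34.6 and 43.1 CPM in large-follicle libraries 1, 2 and 3, against 60.4, 61.1 and 67.0 CPM in small-follicle libraries 1, 2 and 3. Every large-follicle library lay below every small-follicle library. RABEP2 fell by 0.72 on the log2 scale (SE 0.098; adjusted p = 0.0499), a level 0.605 times that of small-follicle oocytes. The gene lies on chromosome 3 of assembly Sscrofa11.1, from 18568264 to 18586259, where the RefSeq gene table has it overlap ATP2A1. ATP2A1 had 2.76 to 5.80 CPM in large-follicle libraries, against 2.63 to 4.06 CPM in small-follicle libraries, and its log2 difference of 0.18 (SE 0.27) did not pass.

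ZFYVE27 encodes protrudin, an ER membrane protein that contacts late endosomes and binds RAB7 and RAB11. It had 36.0, 36.8 and 38.0 CPM in large-follicle libraries 1, 2 and 3, against 53.2, 56.2 and 56.0 CPM in small-follicle libraries 1, 2 and 3. The groups did not overlap, and the spread within each was small, with an SD of 1.02 CPM in large-follicle oocytes and one of 1.67 CPM in small-follicle oocytes. It fell by 0.58 (SE 0.076; adjusted p = 0.0499), a level 0.669 times that of small-follicle oocytes. ZFYVE27 lies on chromosome 14 from 109088758 to 109119854 and overlaps no other gene of that table.

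Both adjusted p-values lay just under the threshold of 0.05. With DESeq2's size factors in edgeR both were 0.0535, and in edgeR without large-follicle library 2 or any single small-follicle library neither passed (adjusted p from 0.142 to 0.362), while their log2 differences stayed between -0.81 and -0.56 in every setting tried. DESeq2's own test, which called 5.66% of genes (2.88% higher and 2.78% lower), gave adjusted p = 1.21e-07 for RABEP2 and 1.67e-07 for ZFYVE27, and it called both as lower in each run with 1 library left out (highest adjusted p = 0.00040 for RABEP2 and 0.00048 for ZFYVE27).

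**Figure D2:**
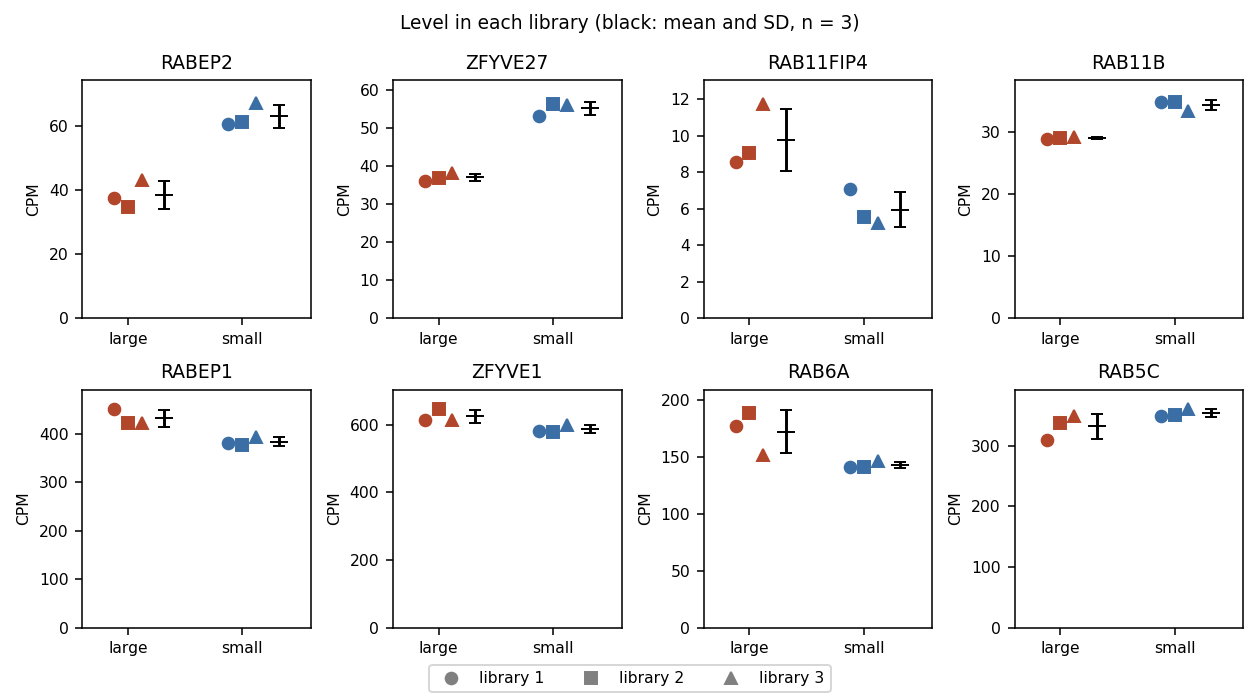
CPM of 8 members in each library, with large-follicle libraries left of small-follicle libraries, 1 symbol per library number, and mean and SD (n = 3) in black. RABEP2, ZFYVE27 and RAB11B lie lower in every large-follicle library, and RABEP1, ZFYVE1, RAB6A and RAB11FIP4 higher.

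RABEP1, the related rabaptin-5, binds RAB5 and RAB4 and forms a complex with the RAB5 exchange factor RABGEF1. It did not follow RABEP2: it had 452, 423 and 422 CPM in large-follicle libraries 1, 2 and 3, against 381, 377 and 394 CPM in small-follicle libraries 1, 2 and 3. All large-follicle libraries were higher, but the log2 difference of 0.17 (SE 0.067) did not pass (adjusted p = 0.222 by edgeR). The ratio of RABEP2 to RABEP1 in TPM, which does not depend on scaling between libraries, was 0.122, 0.120 and 0.150 in large-follicle libraries, against 0.233, 0.238 and 0.250 in small-follicle libraries. An exact permutation test of 3 against 3 libraries cannot give a two-sided p below 0.1, which this ratio reached. RABEP2 was lower and RABEP1 higher in every large-follicle library, so that outcome was fixed by the levels above. It adds no support to them.

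Among the other Rab-named effectors, the RAB11 family binder RAB11FIP4 had the largest positive difference of all members. Its levels were 8.57, 9.05 and 11.7 CPM in large-follicle libraries, against 7.05, 5.56 and 5.23 CPM in small-follicle libraries, without overlap. The log2 difference was 0.69 (SE 0.17) and did not pass with edgeR (adjusted p = 0.105), whereas DESeq2's own test called it as higher (adjusted p = 0.0161). RAB11FIP3, another binder of RAB11, differed by 0.20 (SE 0.19), RAB11FIP2 by -0.17 (SE 0.14) and RAB11FIP5 by -0.18 (SE 0.13), all with overlapping groups. RABEPK, which binds RAB9, differed by 0.000071 (SE 0.22) at 3.39 to 4.32 CPM in large-follicle libraries, against 3.50 to 3.85 CPM in small-follicle libraries.

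All 5 Rab-named regulators had higher means in large-follicle oocytes (4 when scaled by library size alone), and none passed. RABGAP1L, a GAP with a TBC domain, had 79.7, 83.7 and 70.5 CPM in large-follicle libraries, against 67.0, 63.6 and 68.7 CPM in small-follicle libraries, a log2 difference of 0.24 (SE 0.085). The large-follicle libraries were all higher, library 3 by the least. RABGAP1 had 584, 530 and 501 CPM in large-follicle libraries, against 476, 482 and 502 CPM in small-follicle libraries (0.15, SE 0.076). RAB3GAP1 had 167, 149 and 141 CPM in large-follicle libraries, against 139, 139 and 152 CPM in small-follicle libraries (0.089, SE 0.083). The groups of both overlapped, as did those of RAB3GAP2 (0.11, SE 0.091). RAB3IP, the RAB8 exchange factor Rabin8, had 110, 113 and 105 CPM in large-follicle libraries, against 104, 116 and 108 CPM in small-follicle libraries. Its difference of 0.0025 (SE 0.075) turned its sign in each of the settings named above where 4 of 5 were higher.

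Of the other FYVE proteins, ZFYVE16 and ZFYVE28 were scarce and had lower levels in all large-follicle libraries. ZFYVE16 (endofin, an early endosome protein) had 2.52, 1.76 and 2.10 CPM in large-follicle libraries, against 3.50, 3.02 and 3.21 CPM in small-follicle libraries, a log2 difference of -0.63 (SE 0.20) that did not pass. It rests on 52, 97 and 17 reads in large-follicle libraries 1, 2 and 3. ZFYVE28 had 0.339, 1.10 and 0.864 CPM in large-follicle libraries, against 1.34, 2.01 and 1.97 CPM in small-follicle libraries (-1.13, SE 0.39), which rests on 7 reads each in large-follicle libraries 1 and 3. Of the more abundant FYVE transcripts, none but ZFYVE27 (a mean of 45.0 TPM) passed. ZFYVE9, the SARA protein that brings SMADs to TGF-beta receptors, had 85.7, 79.4 and 68.4 CPM in large-follicle libraries, against 78.1, 68.1 and 76.1 CPM in small-follicle libraries (0.076, SE 0.098). ZFYVE19, of the abscission checkpoint, had 75.1, 71.0 and 89.6 CPM in large-follicle libraries, against 74.4, 80.3 and 72.1 CPM in small-follicle libraries (0.047, SE 0.098; -0.0016 with library size alone). Both overlapped, as did ZFYVE26, of lysosome reformation (0.17, SE 0.097). ZFYVE1, at 614, 647 and 614 CPM in large-follicle libraries, against 582, 579 and 599 CPM in small-follicle libraries, differed by 0.092 (SE 0.065).

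No GTPase member of the early endosome passed, RAB5C, RAB5A and RAB4A included. RAB4B, another RAB4 protein, is no member and was lower in every large-follicle library. The log2 difference of RAB4B, -0.37 (SE 0.11), did not pass with edgeR (adjusted p = 0.140). It passed in DESeq2's own test (adjusted p = 0.0368), and its levels are given below with the rows that carry an Ensembl identifier. RAB5C had 310, 337 and 349 CPM in large-follicle libraries, against 349, 351 and 361 CPM in small-follicle libraries, a log2 difference of -0.091 (SE 0.071) with overlapping groups. RAB5A had 5.91, 6.35 and 7.78 CPM in large-follicle libraries, against 7.27, 6.36 and 8.79 CPM in small-follicle libraries (-0.19, SE 0.16). RAB4A had 8.77, 10.95 and 8.40 CPM in large-follicle libraries, against 7.87, 8.70 and 8.47 CPM in small-follicle libraries (0.19, SE 0.14). The other early endosome GTPases, RAB21, RAB22A and RAB31, lay between -0.095 and 0.14.

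For the recycling routes, RAB11B had 28.9, 29.1 and 29.3 CPM in large-follicle libraries, against 34.9, 34.9 and 33.5 CPM in small-follicle libraries. Its groups did not overlap and its replicates lay close together, yet the log2 difference of -0.24 (SE 0.078) did not pass (adjusted p = 0.161 by edgeR). RAB11A, the more abundant paralog, had 270, 253 and 240 CPM in large-follicle libraries, against 245, 258 and 241 CPM in small-follicle libraries (0.037, SE 0.073). RAB14, which moves cargo between Golgi and early endosomes, had 91.4, 102 and 97.2 CPM in large-follicle libraries, against 80.9, 80.4 and 82.7 CPM in small-follicle libraries (0.26, SE 0.074; adjusted p = 0.138 by edgeR). These 3 genes thus gave differences of both signs. RAB10 had 281, 261 and 212 CPM in large-follicle libraries, against 249, 241 and 256 CPM in small-follicle libraries, a difference of 0.018 (SE 0.10) that is -0.036 with library size alone. RAB35, of fast recycling, differed by -0.0072 (SE 0.080).

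Of the late endosome and lysosome GTPases, RAB7A had 203, 200 and 178 CPM in large-follicle libraries, against 177, 178 and 176 CPM in small-follicle libraries (0.13, SE 0.074), with library 3 of the large follicles at the level of the small ones. RAB32, of lysosome-related organelles, had 45.9 to 50.7 CPM in large-follicle libraries, against 39.5 to 44.2 CPM in small-follicle libraries (0.21, SE 0.083) and did not pass. RAB29, a GTPase of the trans-Golgi and lysosomes that binds the kinase LRRK2, spread from 28.3 to 52.6 CPM among large-follicle libraries and from 49.5 to 51.8 CPM among small-follicle libraries. RAB9A differed by -0.0046 (SE 0.084).

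Between ER and Golgi, differences of both signs stood side by side. RAB6A, a Golgi GTPase, had 177, 188 and 152 CPM in large-follicle libraries, against 141, 141 and 146 CPM in small-follicle libraries (0.27, SE 0.088; adjusted p = 0.160 by edgeR). RAB18, of the ER and lipid droplets, had 48.7, 61.4 and 53.3 CPM in large-follicle libraries, against 44.3, 43.7 and 44.3 CPM in small-follicle libraries (0.31, SE 0.096). RAB1B had 39.0, 38.0 and 38.5 CPM in large-follicle libraries, against 43.9, 45.3 and 43.1 CPM in small-follicle libraries (-0.20, SE 0.075), and RAB33B of the Golgi differed by -0.24 (SE 0.099). The groups of these 4 genes did not overlap, and none passed. RAB2A differed by -0.068 (SE 0.070) and its libraries lay between 152 and 154 CPM in large-follicle and between 155 and 170 CPM in small-follicle oocytes. Among GTPases of secretory vesicles, RAB27A differed by 0.017 (SE 0.079), RAB3A by -0.068 (SE 0.11) and RAB3B by 0.036 (SE 0.12), all with overlapping groups.

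**Figure D3:**
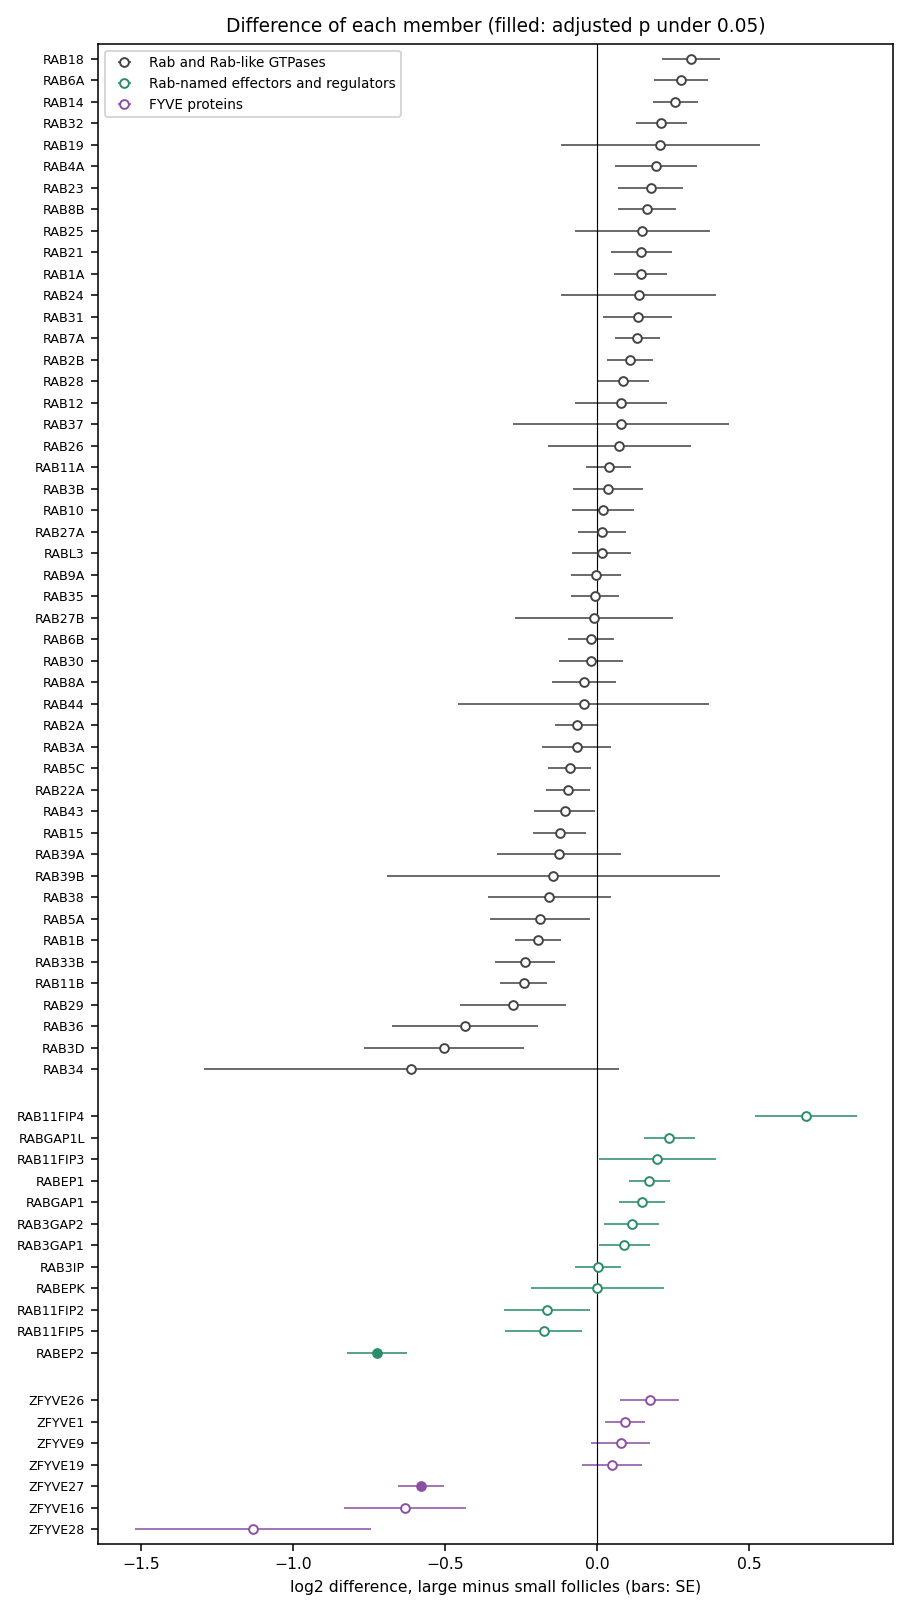
Log2 difference, large minus small follicles, of all 67 members with SE bars, sorted within GTPases, Rab-named effectors and regulators, and FYVE proteins. Filled points mark RABEP2 and ZFYVE27, which passed at an adjusted p under 0.05, and GTPases lie between -0.61 and 0.31.

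Set against each other, the 48 GTPases had a median log2 difference of 0.0047 and the 19 effectors, regulators and FYVE proteins one of 0.076, beside 0.0039 over all genes tested. The mean was lower in large-follicle oocytes for 24 of 48 GTPases and for 6 of the 19 other members, beside 49.2% of all genes. Scaled by library size alone it was lower for 29 of 48 GTPases, 9 of the 19 other members and 58.7% of all genes. At an unadjusted p under 0.05 there were 7 of 48 GTPases (14.6%) and 7 of 19 effectors, regulators and FYVE proteins (36.8%), beside 18.0% of all genes. The median size of the difference, whatever its sign, was 0.13 for GTPases and 0.17 for the other members, beside 0.16 for all genes. Groups did not overlap for 10 of the GTPases and 8 of the other members, 18 in all, beside 23.7% of all genes. Over all genes, 12.1% had every large-follicle library higher and 11.6% every one lower, and among the members 8 and 10 did. These are descriptions of the listed genes, with no test between the classes. By place of action, 1 of 11 early endosome members and 1 of 14 ER and Golgi members fell, with median differences of -0.091 and 0.034. Each member was counted in a single place. RAB4A, also of recycling routes, was counted with the early endosome, and RAB29, also of the trans-Golgi, with late endosomes and lysosomes. None of the 14 members of recycling routes and plasma membrane, 8 of late endosomes and lysosomes and 7 of secretory vesicles passed.

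Summed over genes, the share of the classes overlapped between the groups by TPM and did not overlap by CPM. Effectors, regulators and FYVE proteins made up 37.6%, 36.6% and 36.9% of the members' TPM in large-follicle libraries 1, 2 and 3, against 36.2%, 35.5% and 36.8% in small-follicle libraries 1, 2 and 3. The means were 37.0% ± 0.502 in large-follicle libraries, against 36.1% ± 0.651 in small-follicle oocytes (SD, n = 3 each). By summed CPM, which gives long transcripts more weight, the share was 43.6%, 42.6% and 42.8% in large-follicle libraries, against 42.1%, 41.3% and 42.5% in small-follicle libraries. As a log2 deviation from the mean over 6 libraries, the median GTPase stood at -0.0067, 0.043 and -0.058 in large-follicle libraries, against -0.033, 0.037 and -0.0033 in small-follicle libraries. For the other members it was 0.066, 0.053 and -0.063 in large-follicle libraries, against -0.046, -0.065 and -0.013 in small-follicle libraries, so large-follicle library 3 went with the small-follicle libraries.

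Ratios of related members, taken within each library from the TPM, did not overlap between the groups for 6 of 13 pairs and overlapped for 7 (two-sided exact permutation p of 0.2 to 1.0). The pairs were picked with their values known, so the count is no measure of how often ratios differ. The ratio of RAB11A to RAB11B was 2.59, 2.41 and 2.27 in large-follicle libraries, against 1.95, 2.05 and 2.0 in small-follicle libraries, and that of RAB1A to RAB1B was 1.89, 2.04 and 1.65 in large-follicle libraries, against 1.52, 1.43 and 1.49 in small-follicle libraries. For RAB2A to RAB2B it was 2.18, 2.23 and 2.50 in large-follicle libraries, against 2.52, 2.69 and 2.55 in small-follicle libraries. No paralog of these families passed alone. The ratio of ZFYVE16 to ZFYVE9, a pair of related SMAD-anchor proteins, was 0.0216, 0.0162 and 0.0225 in large-follicle libraries, against 0.0329, 0.0325 and 0.0310 in small-follicle libraries. ZFYVE16 had only 17 reads in large-follicle library 3. The RAB6, RAB27, RAB3 and RAB39 pairs, RABGAP1L to RABGAP1 and RAB3GAP2 to RAB3GAP1 overlapped. The ratio of RAB5A to RAB5C also overlapped, with means of 0.0236 ± 0.00225 in large-follicle libraries, against 0.0248 ± 0.00366 in small-follicle oocytes (SD, n = 3 each). Reads that fit both paralogs could have been split between them in the authors' counting.

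**Figure D4:**
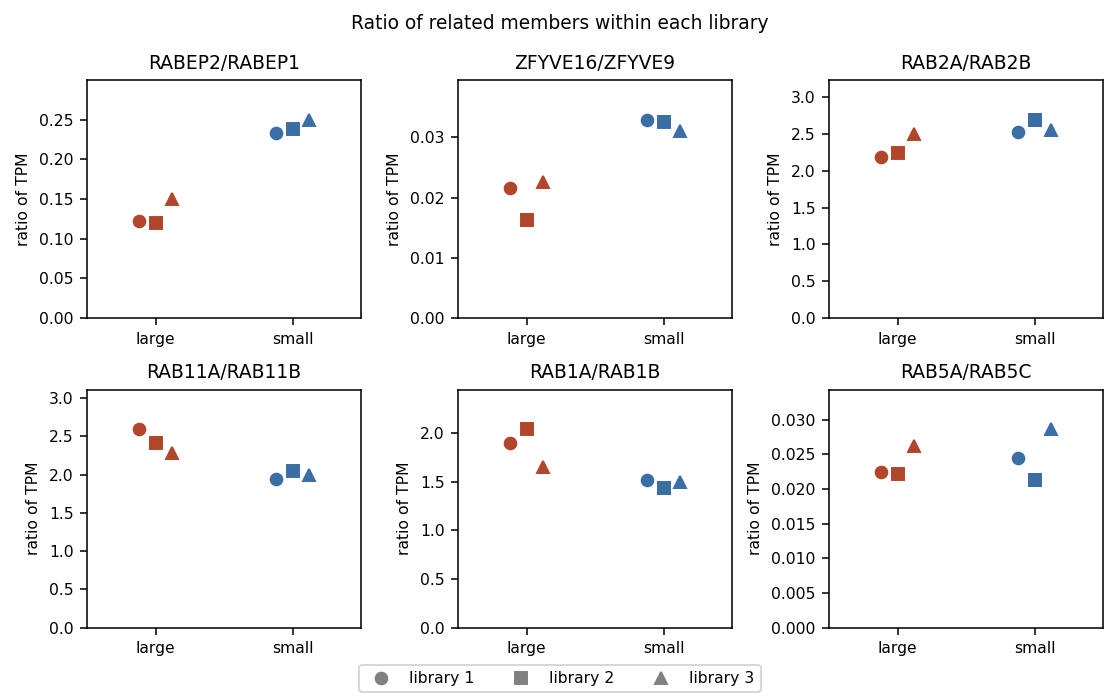
Ratio of deposited TPM of related members within each library, large-follicle libraries left of small-follicle libraries, 1 symbol per library number. RABEP2 to RABEP1 lies at 0.120 to 0.150 in large-follicle and at 0.233 to 0.250 in small-follicle libraries, and RAB5A to RAB5C overlaps.

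Large-follicle library 3, the shallowest, was the closest of the large-follicle libraries to the small-follicle ones for RAB7A, RAB1A and RAB6A. For RAB14, RAB18 and RAB11FIP4 large-follicle library 1 was the closest. RAB1A had 78.6, 82.3 and 67.7 CPM in large-follicle libraries 1, 2 and 3, against 68.3 to 70.9 CPM in small-follicle libraries. Without large-follicle library 3, 6 members rose (RAB11FIP4, RAB14, RAB18, RAB23, RAB6A and RABGAP1L) and 2 fell (RABEP2 and ZFYVE27). Over all genes tested in that comparison 7.79% passed as higher and 5.37% as lower, so a share of 8.96% of the members higher and 2.99% lower is near the background. RAB6A had a log2 difference of 0.35 (adjusted p = 0.0104 by edgeR) and RAB23, which restrains hedgehog signalling, one of 0.27 (adjusted p = 0.0456). RAB18 passed narrowly, at an adjusted p of 0.0498 by edgeR. The log2 difference was smaller without large-follicle library 3 than with all 6 libraries for RAB11FIP4 (0.56 against 0.69) and RAB14 (0.248 against 0.256). It was larger for the other members that rose. Only 2 large-follicle libraries stand behind these calls.

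**Figure D5:**
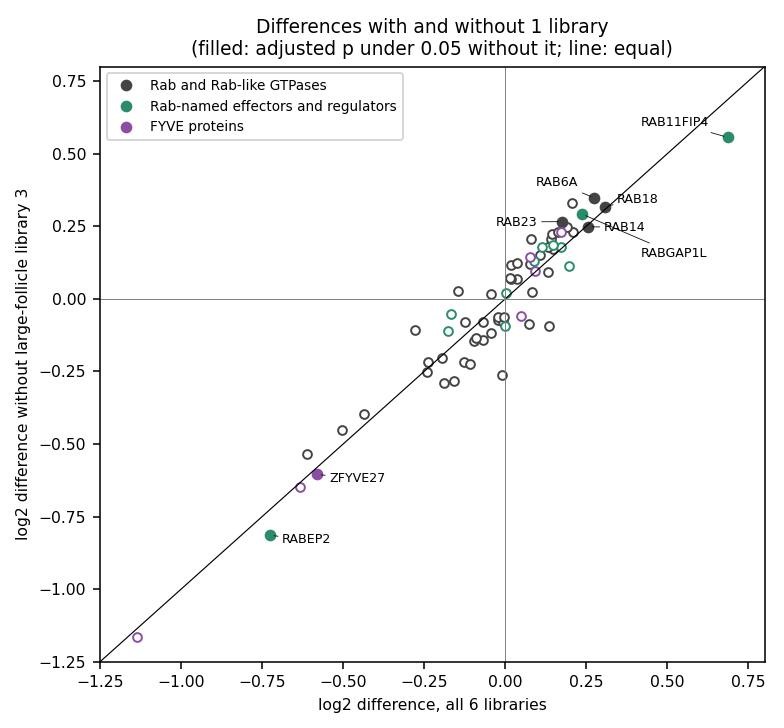
Log2 difference of each member with all 6 libraries (x axis) and without large-follicle library 3 (y axis), by class. The comparisons share 5 libraries, and filled points are the 8 members with an adjusted p under 0.05 without that library.

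The rest of the pathway was counted from lists of other genes. Among effectors with no Rab name, 1 of 31 tested genes fell and 0 rose: BICDL1, an adaptor that links RAB6 vesicles to dynein. It had 17.9, 17.6 and 18.8 CPM in large-follicle libraries, against 28.4, 29.95 and 27.9 CPM in small-follicle libraries, a log2 difference of -0.68 (SE 0.087; adjusted p = 0.0499 by edgeR). BICDL1 lies on chromosome 14 and overlaps RAB35, which spans 40124318 to 40141261 there and had 168 to 195 CPM in large-follicle libraries, against 173 to 187 CPM in small-follicle libraries. In that list the median log2 difference was 0.096, 6 genes had lower means, and 5 were higher and 2 lower at an unadjusted p under 0.05, beside 9.85% and 8.17% of all genes tested. Of 32 genes of that list tested without large-follicle library 3, 3 rose and 2 fell, beside 7.79% and 5.37% of all genes. DESeq2's own test with all libraries called 2 of the list as higher and 1 as lower, beside 2.88% and 2.78% of all genes.

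In the other lists no gene passed in edgeR with all 6 libraries. Without large-follicle library 3, 5 of 32 exchange factors and 2 of 31 GAPs rose. So did 4 of 29 genes of phosphatidylinositol 3-phosphate and other FYVE proteins and 2 of 14 retromer and sorting nexin genes. Of the last list 1 fell. Over all genes tested in that comparison 7.79% rose and 5.37% fell. DESeq2's own test with all libraries called 2 exchange factors, 1 GAP and 1 gene of the phosphatidylinositol 3-phosphate list as higher, beside 2.88% of all genes. Of 32 exchange factors, 5 were higher and 0 lower at an unadjusted p under 0.05, with a median of 0.086. Over all genes tested 9.85% were higher and 8.17% lower at that level, here and for the lists that follow. DENND5B, a DENN-domain exchange factor, differed by 0.37 (SE 0.11). Of 30 GAPs, 2 were higher and 4 lower (median 0.0039), with TBC1D9 at 0.29 (SE 0.070) and TBC1D7, also a subunit of the TSC complex, at -0.34 (SE 0.12). Of 29 genes of phosphatidylinositol 3-phosphate and other FYVE proteins, 4 were higher and 1 lower (median 0.0054), with FGD4, an exchange factor of CDC42, at 0.39 (SE 0.081) and VAC14, of the PIKFYVE complex, at -0.29 (SE 0.11). Of 14 retromer and sorting nexin genes 1 was higher, SNX2 (0.23, SE 0.076), and 1 lower, WASHC1 (-0.23, SE 0.085), with a median of -0.020. Of 10 HOPS and CORVET tethering genes 0 were higher and 1 lower, VPS33A (-0.42, SE 0.16), with VPS16 at -0.18 (SE 0.10) and a median of -0.015. Of 9 genes for prenylation and recycling of Rab proteins 0 were higher and 0 lower at that level (median -0.0020), with CHML, a Rab escort protein, at -0.42 (SE 0.29).

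The count rule left out 7 rows with few reads: RAB17, RAB20, RAB33A, RAB3IL1, RAB40B, RAB7B and RAB9B, with mean levels of 0.0476 to 0.350 TPM. Just inside the rule were RAB34, RAB39B and RAB44, where the third highest count was 13, 17 and 24 reads, and just outside RAB40B and RAB33A, where it was 7 and 4 reads. RAB34, a GTPase of primary cilia, had 0, 0.344 and 0.124 CPM in large-follicle libraries, against 0.283, 0.385 and 0.299 CPM in small-follicle libraries. RAB39B had 0.124 to 0.652 CPM in large-follicle libraries, against 0.326 to 0.548 CPM in small-follicle libraries, and RAB44 had 0.291 to 0.617 CPM in large-follicle libraries, against 0.423 to 0.710 CPM in small-follicle libraries. The groups of all 3 genes overlapped. A further 6 rows carry an Ensembl identifier in the table and a Rab name in the gene name table, and so are no members. Of these RAB4B, the close paralog of RAB4A, had 35.8, 36.9 and 47.5 CPM in large-follicle libraries, against 50.8, 52.8 and 50.3 CPM in small-follicle libraries, a log2 difference of -0.37 (SE 0.11) that did not pass with edgeR (adjusted p = 0.140) and passed in DESeq2's own test (adjusted p = 0.0368). Without large-follicle library 3 it was -0.51 (adjusted p = 0.00612 by edgeR). RAB40C, whose SOCS box joins ubiquitin ligases, had 52.5, 58.7 and 64.3 CPM in large-follicle libraries, against 65.9, 67.4 and 66.6 CPM in small-follicle libraries (-0.19, SE 0.087). It did not pass with all 6 libraries and passed in edgeR without large-follicle library 3 (adjusted p = 0.0396). RABGEF1, the exchange factor bound by RABEP1, had 106, 98.8 and 93.1 CPM in large-follicle libraries, against 83.5, 89.9 and 92.4 CPM in small-follicle libraries (0.16, SE 0.080) and did not pass either. RAB13 was high in large-follicle library 3 alone, at 44.2 CPM beside 13.4 and 19.2 CPM in large-follicle libraries 1 and 2 and 14.0 to 20.0 CPM in small-follicle libraries.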

How the data were processed

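The deposited table holds, for 19296 rows and 6 libraries, raw read counts per gene and TPM as the authors computed it. Per the submitters' processing notes the build was Sscrofa11.1. How reads were aligned and counted, and whether strand was used, is not given in the sources used here. The library kit keeps strand, per the labels' protocols. Reads shared by overlapping or near-identical genes may be split or shared in the counts. Rows with a date as name (25, a mean of 0.153% of reads) were left out. Of 4604 rows with an Ensembl identifier, 853 were given a symbol, for the lists only.

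Counts were tested with edgeR 4.0.16 in R 4.3.3 (TMM, filterByExpr, robust quasi-likelihood F test, group alone, 14091 genes), with Benjamini-Hochberg adjustment over all genes. Log2 differences are large minus small, and SE is the difference over the square root of F. CPM uses TMM-scaled library sizes. DESeq2 1.42.0, other scalings and filters, left-out libraries and a replicate block were alternatives. Positions come from RefSeq, Sscrofa11.1, matched for all 67 members by symbol.

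The members, roles, lists and rule for named genes were chosen with earlier results of these data known. Named were members that passed, the 12 with the smallest p, the 4 most abundant of each class, rabaptins with RAB4, RAB5, RAB7A and RAB11 genes, those at the count threshold and, per list, those that passed or else the 2 with the smallest p. Others were named after their values were seen. Some list genes that the rule names are not reported here. Compartments were assigned from general knowledge. On data simulated for this comparison (13918 genes), 36 of 67 changes of 1.5-fold and 58 of 67 of 2-fold were found, with 12 false calls. In the measured data only 9 of 14091 genes passed, so the adjusted threshold was stricter there. These shares therefore do not give the power for the members. Chi-square tests set replicates of a group 10.4 to 22.2 times beyond sampling noise per degree of freedom. Counting error is largest in large-follicle library 3.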

Additional observations from a re-analysis of the deposited data

How the results depend on the processing

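Of the 67 members 2 fell and 0 rose. In edgeR, leaving out 1 library at a time gave 0 to 2 that fell, 0 to 6 that rose and 8 to 23 at an unadjusted p under 0.05, where all 6 libraries gave 14. Over all genes these runs called 0.0% to 5.37% as lower and 0.0% to 7.79% as higher. At an unadjusted p under 0.05 they had 10.0% to 28.7% of all genes, beside 11.9% to 34.3% of the members. The 2 that fell were lost in edgeR without large-follicle library 2 or any 1 small-follicle library, and the 6 that rose appeared without large-follicle library 3. With DESeq2's size factors in edgeR 0 fell (0.0% of all genes), and DESeq2's own test called 1 as higher, RAB11FIP4 (2.88% of all genes). In DESeq2's own test with left-out libraries, added after seeing the data, 2 to 4 fell, RABEP2 and ZFYVE27 each time, 0 to 12 rose and 7 to 25 had an unadjusted p under 0.05 (9 without large-follicle library 2). The largest of these counts came without large-follicle library 3, where 17.9% of the members rose and 5.97% fell, beside 12.9% and 8.24% of all genes. At an unadjusted p under 0.05 that run had 37.3% of the members, beside 20.5% of all genes. Without large-follicle library 1, 3 rose and 3 fell (2.86% and 2.95% of all genes). Without small-follicle library 1, 1 rose (0.283% of all genes), and 0 rose in the other runs. Over all genes these runs called 0.393% to 8.24% as lower. Library size alone put the median log2 difference of all genes at -0.049 (0.0039 with TMM), that of GTPases at -0.0475 and that of effectors, regulators and FYVE proteins at 0.0227. Left-out libraries gave medians of 0.0226 to 0.0968 for effectors, regulators and FYVE proteins together and -0.0575 to 0.0644 for FYVE proteins. The cause was not tested.

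Differences near 0 turned their sign. For RAB10 the log2 difference was -0.0355 with library size alone, -0.0074 with no filter, -0.0175 with a mean of at least 5 CPM and -0.0686 to 0.1162 with left-out libraries. For RAB3IP it was -0.0025 with DESeq2's size factors, -0.0488 with library size alone, -0.0016 in DESeq2, -0.0221 with no filter, -0.0316 at 5 CPM and -0.0337 to 0.038 with left-out libraries. ZFYVE19 gave -0.0016 and RAB11A -0.0146 with library size alone. Left-out libraries gave -0.0575 to 0.1178 for ZFYVE19, -0.0088 to 0.0682 for RAB11A, -1.6367 to 0.1899 for RAB39B and -0.3711 to 0.2259 for RAB44. Across these settings (the DESeq2 runs with left-out libraries aside), for the 28 members named by the rule, where an adjusted p was given, 287 values kept direction and side of the threshold, 6 gained a call, 11 lost one and 23 turned their sign. RAB34, RAB39B and RAB44 had the fewest reads over the 6 libraries (61, 99 and 112).

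The libraries share replicate numbers. Deviations of same-numbered libraries from their group means correlated at -0.0951, 0.0028 and -0.158, and those of differently numbered ones at -0.0777 to 0.135. No pairing by number showed, but 3 libraries per group cannot exclude one. With the replicate block 1 member fell (RABEP2; ZFYVE27 had adjusted p = 0.0537 by edgeR), 0 rose and 8 had an unadjusted p under 0.05. Over all genes 0.142% fell, 0.0284% rose and 13.1% had an unadjusted p under 0.05 with that block.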
